A study of Mus musculus and Homo sapiens with 30 samples.

Results

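SkBr3 cells, a human breast cancer line known for amplification of the receptor gene ERBB2 (HER2), were exposed to medium conditioned by inguinal fat cells, and the comparison described here is that of a lean with an obese fat cell source. It comprised 8 of the 30 libraries of the series, chosen by their labels: 4 libraries of SkBr3 with lean inguinal adipocyte secretome and 4 with obese inguinal adipocyte secretome. A further 4 SkBr3 libraries in standard growth medium gave the level without any secretome, and the other libraries of the series, from the mouse lines E0771 and NMuMG, were not used here. All SkBr3 cells grew for 36 h in DMEM with 10% FBS, and the secretome groups were then kept for 16 h in a mixture of which 50% was secretome and the rest growth medium. Lean and obese groups therefore received the same share of secretome, which the control group did not. The labels name neither the species, strain, age or diet of the fat donors nor whether donors were pooled, and SkBr3 is a single established line. Nothing in the labels says that the 4 replicates of a group came from separate cultures or separate secretome preparations, so p-values measure the spread between these libraries, which may be technical.

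Adipocytes release hormones, cytokines, free fatty acids and oxidised fatty acids (oxylipins) into their surroundings, and breast tumours grow in contact with such cells. Obesity is known to alter what adipocytes release. The title of the series names an oxylipin of lean adipocytes and ferroptosis, a form of cell death in which iron-dependent oxidation of membrane lipids outruns its repair. Cells answer oxidised lipids in part by transcription, for example of genes for glutathione synthesis, heme breakdown and iron storage.

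The deposited table lists human genes by Ensembl ID without symbols, and no table that pairs these IDs with symbols was used here. The genes are therefore described by number, size, direction and level, and 4 IDs are named, the largest changes in each direction among genes well above the limit of detection. The lists of pathway genes and of cell type markers, which are written by symbol, were not analysed here, so the SkBr3 label was not checked against ERBB2, keratins or markers of other cell types. In RNA from whole cultures, fewer cells of a kind and less RNA per cell cannot be told apart.

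Depth was similar between the groups. Total counts ranged from 19183007 to 27208774 in the lean libraries, from 22096245 to 29195499 in the obese libraries and from 18479433 to 26114542 in the control libraries. Between 17258 and 18801 of the 61552 IDs had at least 3 reads in a library, and 14874 IDs passed the filter on low counts and were tested.

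The lean libraries did not respond evenly, and this touches all counts given below. Each lean and obese library was placed on a scale on which 0 is the mean of the other obese libraries and 1 the mean of the other lean libraries, as the median over genes that differed by at least 0.5 on the log2 scale in a fit that left that library out. Lean replicate 4 lay at 1.21, replicate 2 at 1.11, replicate 1 at 0.915 and replicate 3 at 0.515. Lean replicate 3 thus had moved about as far as midway from the obese mean to the other lean libraries, and its middle range of genes, from 0.287 to 0.754, did not reach 1. It was the lean library nearest to the obese mean in 4271 of the 6561 genes called between the groups (65.1%), against 1350 for replicate 1, 498 for replicate 4 and 442 for replicate 2. Lean replicate 3 was also the shallowest of the 8 libraries, and the part of depth in its position was not tested.

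The obese libraries differed among themselves as well, over a smaller span. Obese replicate 1 lay at 0.211 and replicate 4 at 0.177, while replicate 2 lay at -0.0530 and replicate 3 at -0.0879. Obese replicates 1 and 4 were thus shifted toward the lean libraries, and the highest obese library stayed below the lowest lean library. The control libraries, which had no part in the choice of genes, lay between -0.160 and -0.0978, all below the obese mean of their scale. That scale used the means of all lean and all obese libraries, over 1461 genes. Each obese library was instead placed against the other obese libraries, over its own set of genes. Control and obese positions are therefore not on the same scale, and small gaps between them cannot be read. As group means, the positions were 0.936 ± 0.306 (SD, n = 4) for lean, 0.0619 ± 0.154 for obese and -0.125 ± 0.0263 for control. The SD of the control group is not comparable with the other SDs, since its libraries shared 1 set of genes and 1 pair of means.

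**Figure D1:**
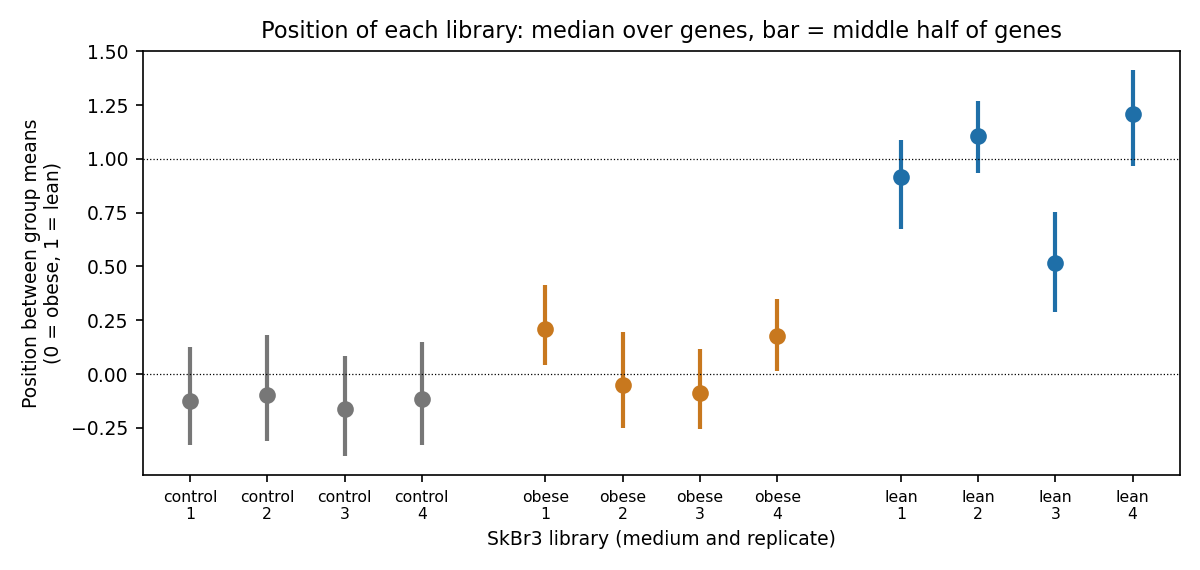
Position of the 12 SkBr3 libraries between the obese mean (0) and the lean mean (1), as the median over responding genes, with a bar from the lower to the upper quartile of the genes. The 4 control libraries sit just below 0, the obese libraries between -0.0879 and 0.211, and lean replicate 3 at 0.515, apart from the other lean libraries. Lean and obese libraries are placed with themselves left out of the means, and control libraries against the full group means.

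The spread between replicates was largest in the lean group. The standard deviation of log2 CPM (CPM is a count relative to the total of its library), taken as the median over genes, was 0.121 for the lean libraries, 0.0944 for the obese and 0.0830 for the control libraries. Without lean replicate 3 the lean value fell to 0.0899, and without another lean library it stayed between 0.115 and 0.123.

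The lean and the obese secretome left SkBr3 cells with broadly different transcript levels. At an adjusted p under 0.05 in edgeR's quasi-likelihood test, 6561 of 14874 genes differed, or 44.1% of those tested. Of these, 3131 were higher with the lean secretome (21.1% of genes tested) and 3430 were lower (23.1%). The typical change was small: the median called increase was 0.31 on the log2 scale, 1.24-fold, and the median called decrease was -0.28, 1.22-fold, where the median standard error of a gene was 0.0759. Without lean replicate 3 there were 7324 called genes (3488 higher, 3836 lower). Of the 6561 genes, 6330 were called in that fit too, all in the same direction, and 5407 (82.4%) had a larger fold change there. Leaving out lean replicate 3 raised the size of the called changes by a median factor of 1.11, where leaving out lean replicate 1, 2 or 4 gave factors of 1.01, 0.952 and 0.921.

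The called direction depended on the size of the change. Among the 2610 genes that changed by less than 0.25, 1187 were higher and 1423 lower with the lean secretome. Between 0.25 and 0.5 there were 1045 higher and 1369 lower, and between 0.5 and 1 there were 645 higher and 538 lower. From 1 to 2, corresponding to changes between a doubling and a quadrupling, 238 were higher and 97 lower. At 2 or more, 16 were higher and 3 lower. Large changes were thus mostly increases: of the called genes that changed by at least 1, 254 were higher (1.71% of genes tested) and 100 were lower (0.672%). Without lean replicate 3 the numbers were 324 higher and 170 lower. Both counts were thus larger without that library, the large decreases by the greater proportion. Leaving out another lean or obese library gave between 218 and 318 higher and between 84 and 123 lower. Without a control library there were between 286 and 290 higher and between 100 and 102 lower. A rise in large increases is therefore not particular to lean replicate 3. Fits with a library left out also tested more genes, 15121 without lean replicate 3 in place of 14874.

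**Figure D2:**
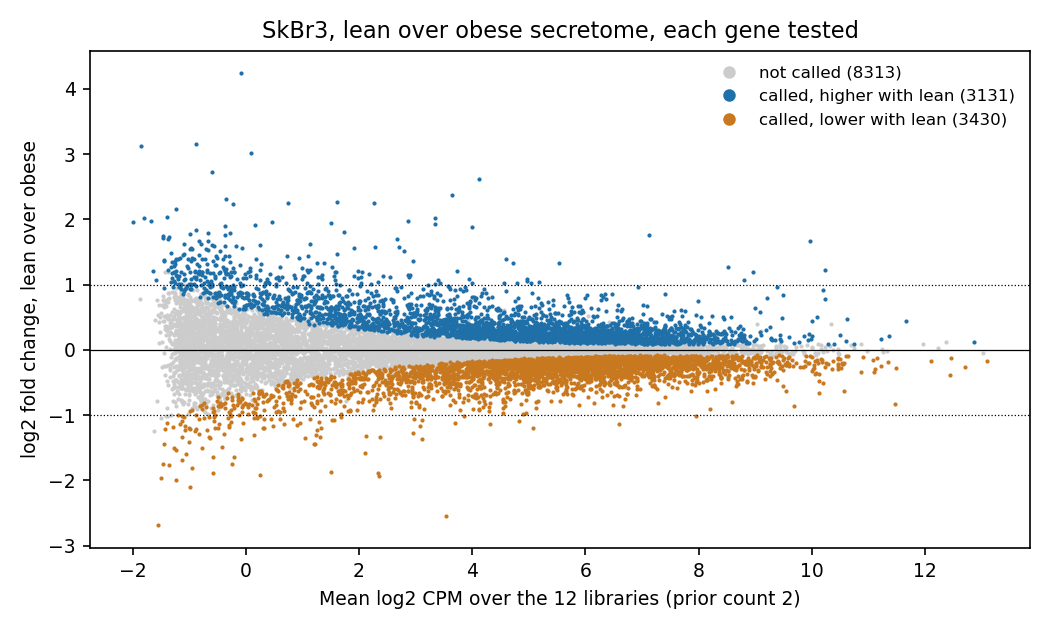
Log2 fold change of lean over obese secretome (vertical axis) against the mean log2 CPM over the 12 libraries (horizontal axis) for the 14874 genes tested, with called genes in colour. Dotted lines mark a change of 1 in either direction; 254 called genes lie at or above the upper line and 100 at or below the lower one.

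A count that does not rest on the fitted model, but on the same libraries, genes and scaling, gave a similar picture. It is therefore no separate support for the calls. The 4 lean libraries lay wholly above the 4 obese libraries in 2365 genes (15.9%) and wholly below them in 2803 genes (18.8%). Of the 6561 called genes, 4819 (73.4%) showed no overlap between the groups, and of the 354 called genes that changed by at least 1, 280 did (79.1%). In 349 genes the groups did not overlap although the fit did not call a difference. Without lean replicate 3 the groups did not overlap in 7340 genes in place of 5168. Leaving out any other lean or obese library gave between 5497 and 6050, fewer libraries making overlap less frequent in each case.

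Direction also varied with the level of the gene. The tested genes were divided into 4 groups of about equal number by their mean log2 CPM over all 12 libraries. In the lowest group, under 2.77 CPM, 738 of 3718 genes were called, 494 higher and 244 lower with the lean secretome. In the next group, up to 20.4 CPM, 871 were higher and 714 lower. In the third group, up to 63.7 CPM, 878 were higher and 1066 lower. In the highest group, 2294 of 3719 genes were called, 888 higher and 1406 lower. Among called genes, those at low levels were thus more often higher than lower with the lean secretome, and those at high levels more often lower. Of all genes tested, fewer were called higher in the lowest group (494 of 3718) than in the highest (888 of 3719). The filter kept any gene that was well covered in as many libraries as 1 group holds. A gene at a low level could thus pass through the lean, the obese or the control libraries alone.

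The share called grew with level from 19.8% to 61.7%, while the median standard error shrank from 0.281 to 0.0423. The called changes shrank with level too, from a median size of 0.87 in the lowest group to 0.40, 0.25 and 0.21. Of the 354 genes that changed by at least 1, 274 were in the lowest group, 196 of them higher, and 8 in the highest group, 6 of them higher. The balance between increases and decreases depends on the scaling. Scaled by library totals alone, increases made up 72.5%, 62.0%, 54.9% and 48.5% of the called genes from the lowest to the highest group, against 66.9%, 55.0%, 45.2% and 38.7% with the TMM factors used here. The decline with level was present under both, but in the third group the majority changed side. Over all called genes, increases made up 47.7% with TMM factors, 52.9% with upper quartile factors and 56.5% with library totals alone, so neither direction can be called the more frequent one.

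**Figure D3:**
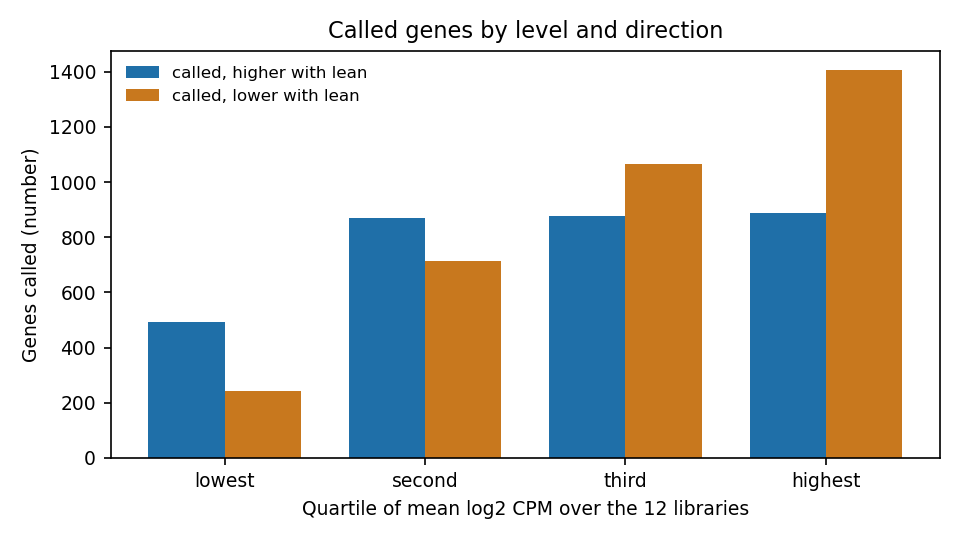
Number of genes called higher (blue) or lower (orange) with lean than with obese secretome, in 4 groups of genes ordered by mean log2 CPM. Increases outnumber decreases in the lowest group (494 against 244) and decreases outnumber increases in the highest (1406 against 888).

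Few genes passed from below to above a level of 1 CPM between the media. In 42 of the 14874 genes tested all 4 lean libraries had at least 1 CPM and all 4 obese libraries less, and the fit called 40 of them. Choosing genes by a separation of these libraries favours a call, so the calls are no separate support here or in the opposite direction. In 29 of these 42 all control libraries were under 1 CPM as well, and in none were all control libraries at or above it. In the opposite direction there were 21 genes, 19 of them called, of which 11 had all control libraries at or above 1 CPM and none had all of them under it. Among all 61552 IDs, tested or not, 3 had no read in any obese library and at least 3 reads in every lean library. No ID showed the reverse. Without lean replicate 3 the counts were 78 and 34 in place of 42 and 21. Fewer libraries make this criterion easier to meet, and the counts without another library are not given here.

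The 4 IDs come from 4205 called genes in which the groups did not overlap and log2 CPM averaged 2 or more, 1775 of them higher and 2430 lower with the lean secretome. The largest increase was in ENSG00000100292. With the lean secretome its level in replicates 1 to 4 was 80.4, 76.9, 47.3 and 82.3 CPM. With the obese secretome it was 14.9, 6.86, 8.71 and 16.3 CPM. In control medium it lay between 5.92 and 7.49 CPM. Every lean library exceeded every obese library, with lean replicate 3 the lowest of its group. Obese replicates 1, 3 and 4 lay above all control libraries, while obese replicate 2 lay within their range. The fit put lean over obese at 2.61 on the log2 scale (SE 0.267, adjusted p = 4.63e-05 in edgeR), a 6.12-fold difference.

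The second largest increase was in ENSG00000151012, which showed the weak response of lean replicate 3 most plainly among the 4 IDs. The lean libraries held 42.6, 49.5, 15.7 and 50.0 CPM in replicates 1 to 4, and the obese libraries 9.27, 6.27, 7.61 and 7.59 CPM. The control libraries lay between 6.70 and 7.38 CPM. Lean replicate 3 was the only lean library below 40 CPM, yet above every obese and control library, and 3 of the 4 obese libraries were at or above the highest control library. The log2 fold change was 2.38 (SE 0.332, adjusted p = 0.000328 in edgeR), a 5.19-fold difference.

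The largest decrease was in ENSG00000167552, where the obese libraries fell into a high and a low pair. In the lean libraries the level was low throughout, at 3.64, 2.39, 3.97 and 2.86 CPM in replicates 1 to 4. In the obese libraries it was 28.6, 4.70, 35.2 and 5.93 CPM, a 7.48-fold range within 1 group. In control medium it was between 34.6 and 37.3 CPM. Obese replicates 1 and 3 were thus near the control level, and obese replicates 2 and 4 near the lean level, though still above each lean library. This pair does not match the pair shifted toward lean over all responding genes, which was obese replicates 1 and 4. Of the 10601 tested genes that averaged a log2 CPM of 2 or more, this was the only one whose standard deviation reached 1 on the log2 scale within the obese group, and none did so in the lean or the control group. The log2 fold change of -2.54 carried a standard error of 0.702 (adjusted p = 0.0156 in edgeR). In a fit of the 8 lean and obese libraries alone the adjusted p was 0.0515, which misses the threshold, and the range over the alternatives began at 8.4e-05. Without obese replicate 3 the log2 fold change was -2.01.

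The second largest decrease, in ENSG00000188293, was even across the obese libraries. They held 9.18, 8.47, 8.08 and 9.93 CPM in replicates 1 to 4, against 2.16, 2.16, 3.67 and 1.63 CPM in the lean libraries. The control libraries spread from 4.72 to 8.81 CPM. Lean replicate 3 was again the lean library nearest to the obese ones, and the control libraries lay between the groups or within the obese range. The log2 fold change was -1.93 (SE 0.222, adjusted p = 1.3e-05 in edgeR), a 3.82-fold difference.

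**Figure D4:**
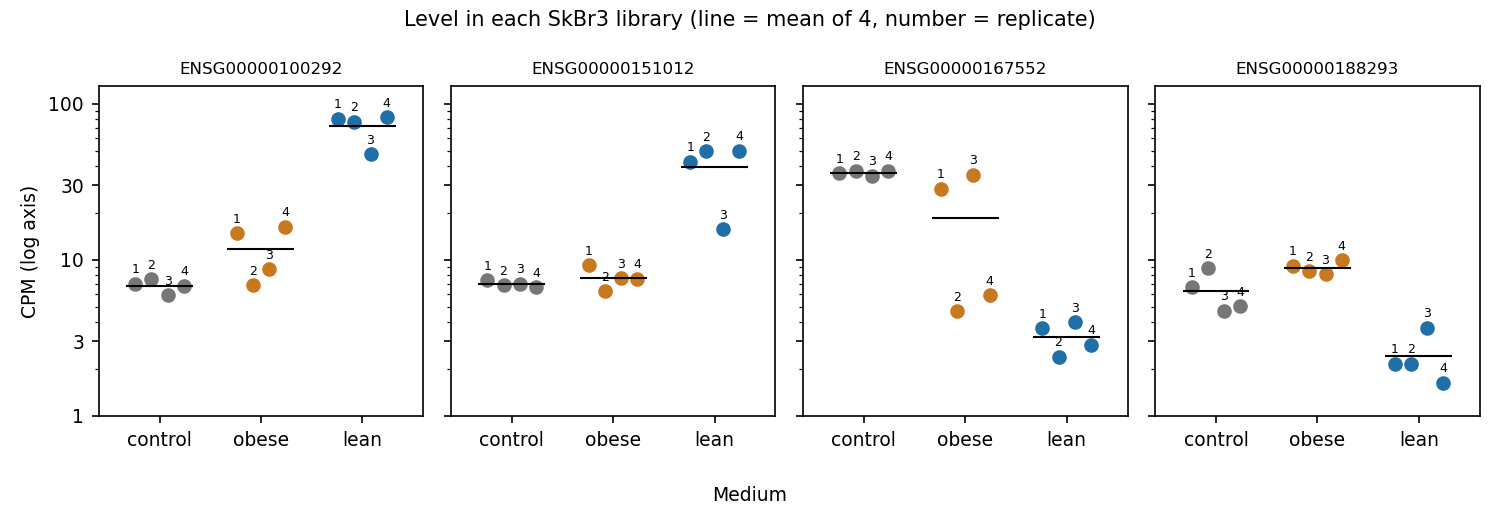
CPM on a log axis in each SkBr3 library for the 4 IDs with the largest changes, by medium, with the replicate number above each point and a line at the mean of 4. Lean replicate 3 is the lean library nearest to the obese libraries in all 4 panels, and in ENSG00000167552 obese replicates 1 and 3 are far above obese replicates 2 and 4.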

How the data were processed

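The authors deposited raw counts per human Ensembl gene ID, whole numbers with no normalization, 1 column per SkBr3 library. The submitters' processing notes name cutadapt 1.16, STAR 2.7.9a and featureCounts 1.6.3, and for all samples the mouse build GRCm39 alone. The human build, annotation and strand setting are not given in the sources used here, so no coordinates are printed. Libraries were poly(A)-selected and directional, without molecular identifiers, so reads are not independent molecules.

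All 12 SkBr3 libraries were fitted together with 3 groups in edgeR 4.0.16 (R 4.3.3). The steps were filterByExpr, TMM factors (0.988 to 1.02), estimateDisp, a robust quasi-likelihood fit and an F test of lean minus obese. P-values were adjusted by Benjamini-Hochberg over the 14874 genes tested. These genes took 99.8885% or more of each library's counts. Log2 CPM used a prior count of 2, and the SE is the log2 fold change divided by the root of F. Between 2 lean or 2 obese libraries, chi-square divided by its degrees of freedom was 3.35 to 13.7, so no pair differed by as little as counting error alone, and each library was counted once. The fit was tested on simulated data. The planned rule for named genes, by symbol with pathway members, could not be used without symbols. Its criteria on call, overlap and level were kept. Fewer IDs than it planned were taken, 2 in each direction. The comparison, lists and rules were chosen with earlier results of these data known. Alternatives were DESeq2 1.42.0, other scalings and filters, the 8 libraries alone, a replicate block and leaving out each library.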

Additional observations from a re-analysis of the deposited data

Results flagged for a closer look

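ENSG00000100292 reached 47.3 CPM in lean replicate 3, a gap to the other 3 lean libraries that exceeded Dixon's 95% critical value for 4 samples (the gap was 0.846 of the range of the group). It was the only such value among 15 groups of 4 libraries examined (the 4 IDs and the library positions, in each medium); chance alone passes this value in about 1 in 20 groups. The position of lean replicate 3 did not pass it.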

How the results depend on the processing

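Of 401 alternative values, 395 stayed the same, 5 were weaker and 1 was stronger. A count stayed the same if it lay within 1.5 times its main value. A named ID did so if its fold change kept its direction and its side of the threshold. Counts have no direction to change, and no named ID changed direction. The balance of called genes did change side with the scaling, from 47.7% increases with TMM factors to 56.5% with library totals alone. A stricter filter (at least 1 CPM in 4 libraries) lowered the genes changed by at least 1 from 354 to 197, of which 142 were higher and 55 lower; it tested 13023 genes in place of 14874. Leaving out 1 library gave between 5527 and 7324 called genes, the highest without lean replicate 3. Large decreases numbered 170 without that library, and called decreases in the lowest level group 155 without lean replicate 4 in place of 244. Between 64.5% and 72.5% of called genes in the lowest level group, and between 37.7% and 48.5% in the highest, were increases. DESeq2 called 6346 genes. ENSG00000167552 missed the threshold in the fit of 8 libraries (0.0515); the other 3 IDs passed in all 20 alternatives. Same-numbered lean and obese libraries had correlations of residuals from -0.0452 to 0.0433, and different-numbered ones from -0.102 to 0.0987. No pairing by number was seen, which does not exclude a shared origin of same-numbered libraries. With a replicate block 6428 genes were called. Library positions under 3 other scalings, tried after the data were seen, moved by less than the spread between replicates. The pathway lists were not run, since they are written by symbol. Depth limits the lowest group of genes, where the median SE was 0.281.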
